A study of Mus musculus with 18 samples.

Results

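The 10 genes described here are 5 inhibitors of cyclin-dependent kinases (Cdkn1a, Cdkn1b, Cdkn2a, Cdkn2b and Cdkn2c), the 3 D cyclins (Ccnd1, Ccnd2 and Ccnd3), the p53 gene Trp53 and Mdm2. They were taken by symbol from a table of 55486 genes, each symbol matched 1 row, and all 10 passed the filter on low counts that left 14273 genes for testing. RNA sequencing had been done on 18 libraries of cultured normal fibroblasts (NFs) of the mouse mammary gland. CD26- and CD26+ NFs of adult female mice on an FVB/n background had been sorted with an antibody to CD26, the surface peptidase encoded by Dpp4, as cells lacking EpCAM, CD49f, CD45 and CD31. Glands of several mice were pooled per sort, and cells were used after a few passages on collagen type I. The groups were CD26- NFs in control conditioned medium (called control medium here; 3 libraries, replicates 1 to 3), CD26- cells in tumour conditioned medium (CM; 6 libraries, replicates 4 to 9), CD26+ NFs in control medium (3 libraries, replicates 10 to 12) and CD26+ cells in tumour CM (6 libraries, replicates 13 to 18), each kept for 7 days. No group carried an engineered deletion in the sequenced cells as far as the labels say (genotype FVB/n). The paper names as donors of its NFs either mice without Wap-Cre that carry alleles deletable by Cre, or reporter mice. Which of them gave these cells was not stated. CM came from 6 tumour lines of a mouse model of invasive lobular carcinoma, in which Wap-Cre acts in mammary epithelium, and each line was given to 1 culture of each cell type. The question was whether lower RNA of cell division genes in tumour CM, where it was seen, went with genes of cell cycle arrest or senescence. Proliferation itself was not measured in these libraries.

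D cyclins bind the kinases CDK4 and CDK6 in G1 and are the link between growth factors and the cell cycle. These kinases phosphorylate the retinoblastoma protein, which frees E2F factors to transcribe the genes of DNA replication and mitosis. The INK4 proteins p16, p15 and p18 (from Cdkn2a, Cdkn2b and Cdkn2c) block CDK4 and CDK6, while p21 and p27 (Cdkn1a and Cdkn1b) bind a wider set of cyclin and kinase complexes. p53 is a transcription factor activated by DNA damage and other stress, Cdkn1a and Mdm2 are among its classical targets, and MDM2 in turn marks p53 for degradation. In senescent fibroblasts arrest is held by p16 and p21 and comes with a secretion of cytokines and proteases.

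Total counts ranged from 9725723 to 14585349 per library, and the members had between 79 and 16492 counts in a library. All 10 fibroblast markers were detected in each group, and their summed level was higher in CD26+ NFs (30801 to 82448 CPM, counts scaled to library size) than in CD26- NFs (10194 to 22314 CPM). The 12 epithelial markers summed to 5110 to 5747 CPM in CD26- controls, to 3335 to 4416 CPM in 5 of the 6 CD26- CM libraries and 5431 CPM in the other, replicate 7, and to 755 to 1831 CPM in CD26+ NFs. With CM in CD26- NFs 1 of the 12 fell and 0 rose (median log2 change -0.41; 7.28% of all genes fell), and 10 of the 12 were lower in CD26+ NFs in each medium, against 25.4% of all genes in control medium and 29.3% in CM. Every difference between the cell types below moves with these markers, whose part in it was not tested. Within CD26+ NFs the fibroblast markers summed to 65061 to 82448 CPM in control medium and to 30801 to 54687 CPM in CM, beside the changes with CM given below, and their part was not tested either. Skeletal muscle markers summed to 49.5 to 154 CPM in CD26- NFs and to 6.45 to 19.8 CPM in CD26+ NFs, and 6 of the 7 tested rose with CM in CD26- NFs, where 7.88% of all genes rose, although the sums of CM replicates 5 and 9 (53.7 and 73.6 CPM) lay within the control range of 49.5 to 77.3 CPM. The 8 immune markers summed to at most 29.7 CPM, the 7 endothelial markers to at most 9.16 CPM and the 6 adipocyte markers to at most 104 CPM. Dpp4 had 0 to 2 counts in CD26- control libraries, 0 to 1 in CD26+ control libraries, 1 to 11 in CD26- CM libraries and 8 to 104 in CD26+ CM libraries, so at the RNA level it did not separate the cell types in control medium. In bulk RNA, fewer cells of a kind and less RNA per cell cannot be told apart. Replicate 18, CD26+ NFs in CM of line 13-MCB-138, stood apart from the other 5 CD26+ CM libraries in its cell division genes, as given below, and values without it are given beside the results it bears on most.

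Upstream DNA is shown for Cdkn1a, which rose with CM in CD26+ NFs, for Cdkn2b, which differed between CM lines, and for Cdkn2a, which is counted as a single gene although it is read from separate starts. Each line gives 250 bases 5' of a RefSeq start on the coding strand of GRCm38.p6, with matches in capitals except for single p53 decamers. The motifs, read on both strands, were a single p53 decamer by its name, the cAMP response element TGACGTCA, the AP-1 site TGANTCA, the E2F site TTTNGCGC, the GC box GGGCGG and, by their names, the NF-kB site and the p53 response element, the latter as a pair of abutting decamers with at most 1 mismatch over the pair, the last added after the Cdkn1a sequence had been seen. RefSeq gave a window for 8 of the 10 members.
Cdkn1a, upstream start (chr17:29090729-29090978, + strand): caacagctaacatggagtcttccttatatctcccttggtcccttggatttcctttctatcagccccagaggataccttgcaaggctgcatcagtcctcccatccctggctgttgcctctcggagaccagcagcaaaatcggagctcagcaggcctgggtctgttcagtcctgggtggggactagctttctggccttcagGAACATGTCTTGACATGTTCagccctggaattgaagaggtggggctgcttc
Cdkn2a, start of the p16 transcript (chr4:89282193-89282442, - strand): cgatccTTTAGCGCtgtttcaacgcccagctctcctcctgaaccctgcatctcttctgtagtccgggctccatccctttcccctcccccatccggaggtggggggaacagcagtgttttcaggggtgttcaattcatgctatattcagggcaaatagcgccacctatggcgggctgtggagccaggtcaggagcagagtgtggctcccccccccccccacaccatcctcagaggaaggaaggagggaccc
Cdkn2a, start of the Arf transcript (chr4:89294620-89294869, - strand): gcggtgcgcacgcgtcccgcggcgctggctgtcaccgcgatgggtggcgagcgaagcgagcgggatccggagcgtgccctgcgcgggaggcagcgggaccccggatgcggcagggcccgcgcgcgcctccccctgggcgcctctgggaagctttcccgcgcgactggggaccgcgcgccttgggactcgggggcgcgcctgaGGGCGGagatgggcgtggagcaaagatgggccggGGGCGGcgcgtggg
Cdkn2b (chr4:89311033-89311282, - strand): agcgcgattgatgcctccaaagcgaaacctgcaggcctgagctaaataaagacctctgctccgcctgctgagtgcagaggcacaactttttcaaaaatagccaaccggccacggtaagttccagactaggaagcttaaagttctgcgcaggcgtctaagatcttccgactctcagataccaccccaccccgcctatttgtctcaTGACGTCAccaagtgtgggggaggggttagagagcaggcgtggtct
In the Cdkn1a window shown, that of the upstream start, the capitals are a p53 response element that begins 51 bases before the start, and 25 of 32851 windows of this length (0.0761%) held such an element. The window of the other Cdkn1a start (chr17:29093519-29093768), not shown, held 2 GC boxes, 0 single p53 decamers and 0 paired elements. The p16 window of Cdkn2a held an E2F match 244 bases before the start, a motif present in 1.13% of windows, and the Arf window held 2 GC boxes, present in 32.7% of windows. The Cdkn2b window held a cAMP response element 46 bases before the start, which 1.55% of windows had. Single p53 decamers, which 7.13% of windows held, were matched 2 times in the Cdkn1a window shown, 1 of them inside the capitals, and 1 time each in the windows of Mdm2 (chr10:117710759-117711008) and Trp53, neither of which held the paired element. A match describes letters and not a bound site.

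**Figure D1:**
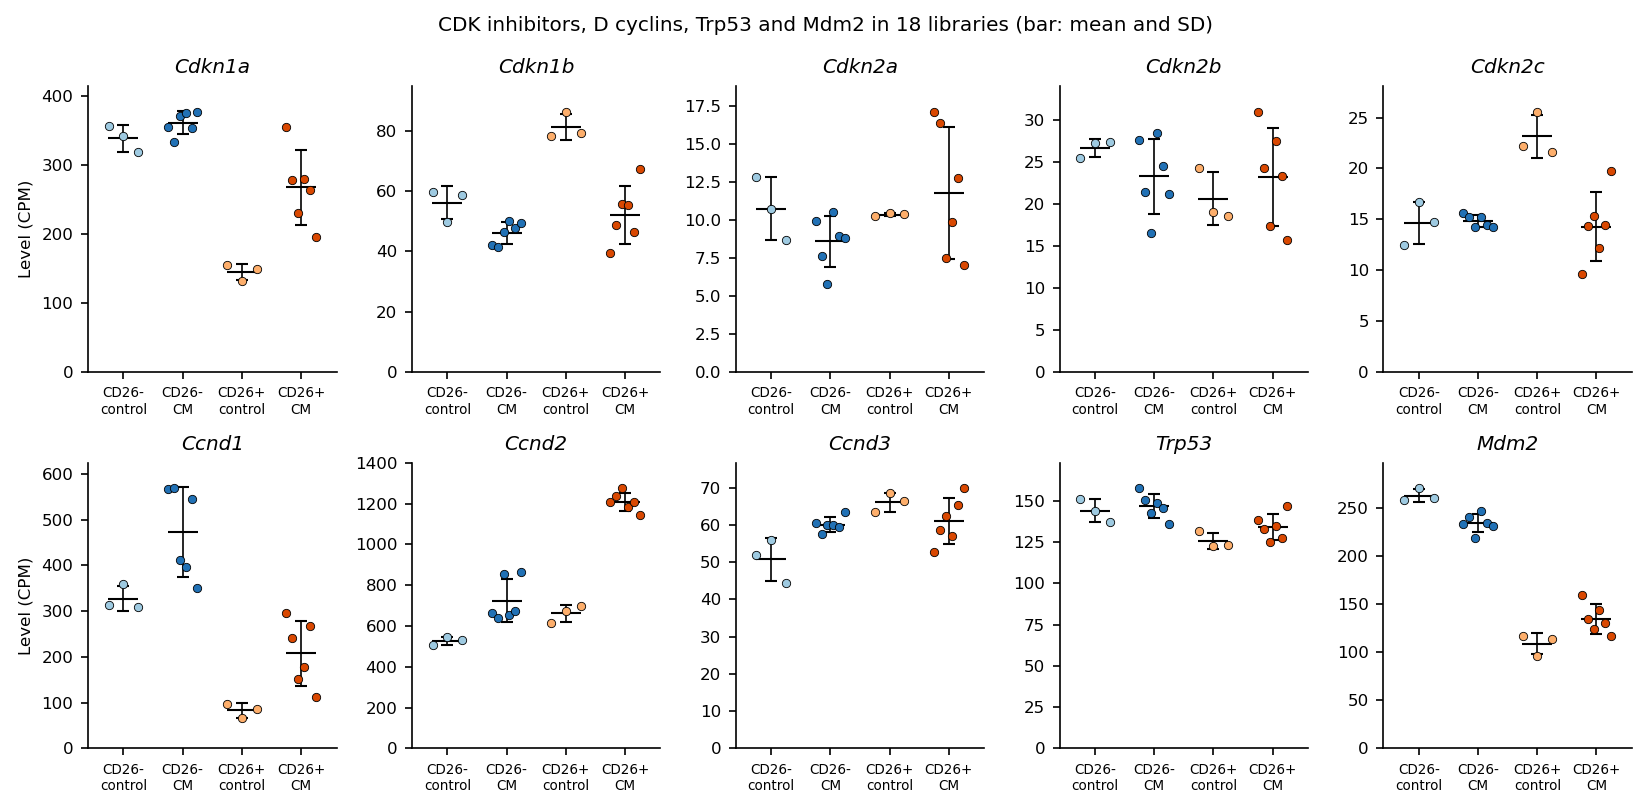
Level of each gene in CPM (vertical axes, from 0) in every library of the 4 groups (horizontal axes), with points for libraries and a bar for the mean and SD. Cdkn1a, Ccnd1 and Mdm2 were lowest in CD26+ NFs in control medium, where Cdkn1b and Cdkn2c were highest, and Ccnd2 was highest in CD26+ NFs in CM.

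In CD26- NFs, CM left the CDK inhibitors, Ccnd1, Trp53 and Mdm2 without a call and raised Ccnd2 and Ccnd3. In this comparison 2 of 10 members were higher and 0 lower at a false discovery rate (FDR, the Benjamini-Hochberg adjusted p of edgeR over all tested genes) under 0.05, where 15.2% of all genes were called, 7.88% upwards and 7.28% downwards. Without a library these numbers moved: 1 member was called in 7 of 18 such fits, and the 2164 genes called became 1099, 1401 and 825 without control replicates 1, 2 and 3. In CD26+ NFs, CM raised Cdkn1a, Mdm2, Ccnd1 and Ccnd2 and lowered Cdkn1b and Cdkn2c, so 6 of 10 members were called against 28.6% of all genes, 4 higher against 15.2% and 2 lower against 13.4%. Between the cell types in control medium, 8 of 10 members differed against 50.3% of all genes, 4 with more RNA in CD26+ NFs (25.0% of all genes) and 4 with less (25.4%). In tumour CM, 5 of 10 differed against 58.6%, 1 higher and 4 lower, against 29.3% of all genes in each direction, which is near the background. The CM effect differed between the cell types for 3 of 10 members against 7.53% of all genes, for 2 in the positive direction (4.53%) and for 1 in the negative (3.01%). This count was 1 without replicate 3, 0 without replicate 11, 7 without replicate 18, 7 with the CM line as a block, and 5 with DESeq2. All genes called for the difference moved too, from 1075 to 454, 339 and 2345 without replicates 3, 11 and 18. Blocking by line gave 2516 genes, so 7.53% is not the background of these refits. The median log2 change of the members was 0.02 and 0.18 with CM in CD26- and CD26+ NFs, -0.12 and -0.03 between the cell types in control medium and CM, and 0.39 for the difference, where the medians of all genes were within 0.01 of 0. No member was past the log2 limit of 2 used by the study in any of these comparisons. That limit together with the FDR called 0.904% of genes for CM in CD26- NFs, 2.01% for CM in CD26+ NFs, 5.97% and 4.16% between the cell types in control medium and in CM, and 0.392% where the effect of CM was compared. The comparisons of CM with control in CD26+ NFs and of the cell types in control medium share the 3 CD26+ control libraries, so a high or low level there enters both with opposite sign.

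**Figure D2:**
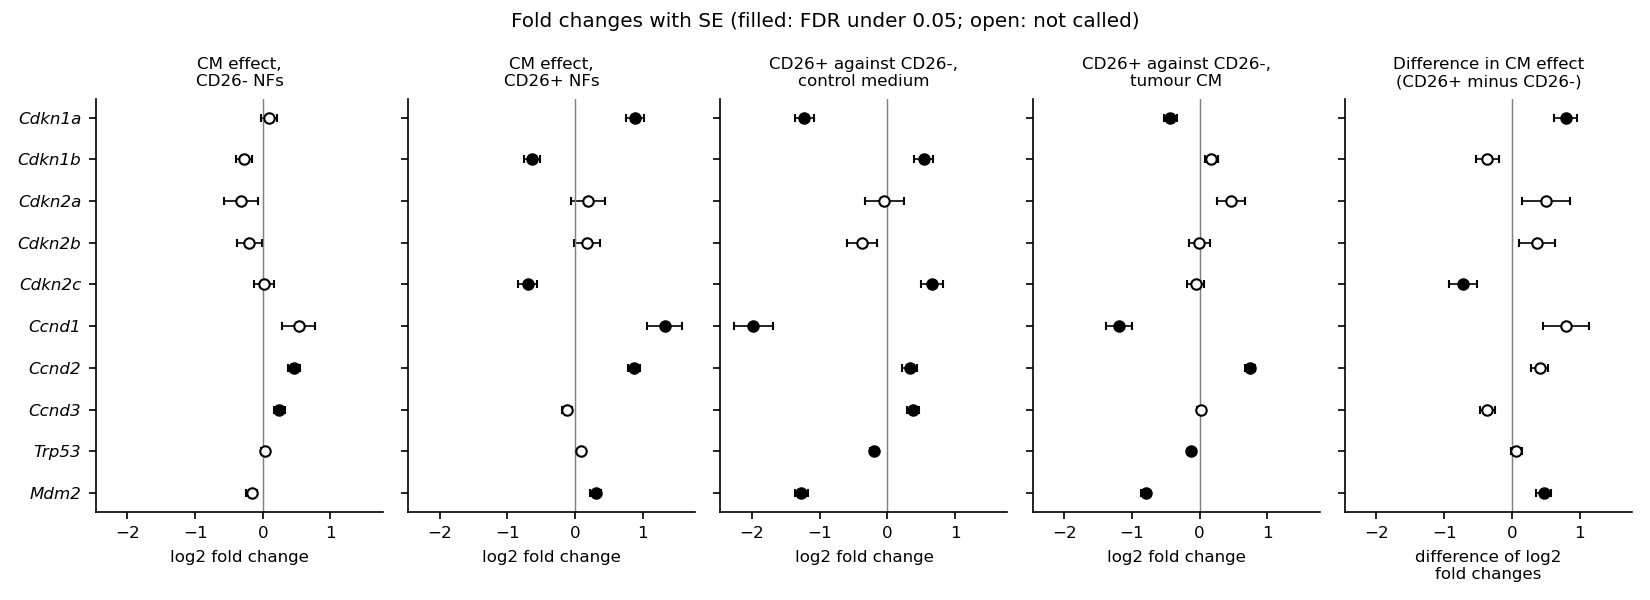
Log2 fold change with SE (horizontal axes) of the 10 genes (vertical axis) in the 4 comparisons of groups, and the difference between the CM effects in the last panel; filled points passed the FDR of 0.05. Most filled points are in CD26+ NFs given CM (6 of 10) and between the cell types in control medium (8 of 10).

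Cdkn1a (ENSMUSG00000023067, chromosome 17, 29090976 to 29100727) encodes p21. It had 357, 342 and 319 CPM in CD26- control libraries and 334 to 377 CPM (median 364) in CD26- CM libraries. In CD26+ NFs it had 154, 132 and 149 CPM in control medium and 196 to 356 CPM (median 272) in CM. All 6 CD26+ CM libraries were above the 3 CD26+ controls, and the highest of them, given CM of line 13-MCB-17, reached the range of CD26- NFs. CM raised Cdkn1a by 0.89 ± 0.127 (log2, SE; FDR 7.23e-05) in CD26+ NFs, and by 0.95 ± 0.104 without replicate 18, while the change in CD26- NFs was 0.09 ± 0.121 (FDR 0.661). The difference between these changes was 0.79 ± 0.172 (FDR 0.0118; 0.86 and FDR 0.000564 without replicate 18). Without CD26+ control replicate 11, which had the lowest control value this FDR was 0.0586. Cdkn1a was 2.34-fold lower in CD26+ than in CD26- NFs in control medium (FDR 1.90e-06) and 1.35-fold lower in CM (FDR 0.00112), where the groups overlapped (log2 difference -0.43, and -0.36 without replicate 18).

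Cdkn1b (ENSMUSG00000003031, chromosome 6, 134920401 to 134925513) encodes p27, an inhibitor that accumulates in resting cells. Its levels were 59.8, 49.9 and 58.7 CPM in CD26- controls and 78.3, 86.3 and 79.3 CPM in CD26+ controls. In CM it had 41.5 to 50.1 CPM (median 47.1) in CD26- NFs and 39.4 to 67.5 CPM (median 52.1) in CD26+ NFs. All 6 CD26+ CM libraries were below the CD26+ controls, and the fall was 1.56-fold (log2 change -0.64 ± 0.115, FDR 0.000564; -0.73 without replicate 18). In CD26- NFs the log2 change was -0.28 ± 0.118 (FDR 0.118) and the difference between the changes was -0.36 ± 0.167 (FDR 0.187; 0.0392 with the CM line as a block in the fit and 0.0317 without replicate 18). The FDR of this difference reached 0.357 among the fits without 1 library. Cdkn1b was 1.45-fold higher in CD26+ NFs in control medium (FDR 0.00326), and in CM the log2 difference was 0.17 ± 0.0978 (FDR 0.134; 0.0219 without replicate 13, and 0.09 with an FDR of 0.380 without replicate 18).

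Cdkn2c (ENSMUSG00000028551, chromosome 4, 109660876 to 109667189) encodes the INK4 protein p18. It moved in the same direction as Cdkn1b: 22.3, 25.6 and 21.7 CPM in CD26+ controls stood against 9.63 to 19.7 CPM (median 14.4) in CD26+ CM. Without overlap between these groups, CM lowered it 1.63-fold (log2 change -0.70 ± 0.143, FDR 0.00153; -0.82 without replicate 18). CD26- NFs had 12.5, 16.7 and 14.8 CPM in control medium and 14.2 to 15.6 CPM in CM, a log2 change of 0.02 ± 0.150. The difference between the changes, -0.72 ± 0.208 (FDR 0.0439), lost its call in 12 of 18 fits that left out a library, with an FDR of up to 0.116, and with no filter on low counts (FDR 0.0514). It was -0.84 (FDR 0.00241) without replicate 18, and DESeq2 gave an FDR of 0.0145. In control medium Cdkn2c was 1.58-fold higher in CD26+ than in CD26- NFs (FDR 0.00337), and in CM the 2 cell types overlapped (log2 difference -0.06 ± 0.122; -0.17 without replicate 18).

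Cdkn2a (ENSMUSG00000044303, chromosome 4, 89274471 to 89294653) encodes p16 and, from the other start shown above, the p53 activator ARF, and its row adds both transcripts. It was low in all groups: 12.9, 10.8 and 8.66 CPM in CD26- controls, 5.78 to 10.5 CPM (median 8.88) in CD26- CM, 10.3, 10.4 and 10.4 CPM in CD26+ controls and 7.06 to 17.1 CPM (median 11.3) in CD26+ CM. The CD26+ CM libraries spread to both sides of their controls, with 17.1 and 16.4 CPM under CM of lines 13-MCB-17 and 10-SJK-221 and 7.06 and 7.52 CPM under CM of lines 13-MCB-138 and 18-MCB-12. The log2 change with CM was 0.19 ± 0.248 (FDR 0.604; 0.30 and FDR 0.340 without replicate 18) in CD26+ NFs and -0.32 ± 0.251 (FDR 0.427) in CD26- NFs, so no change was detectable beyond the spread between lines. In CM the log2 difference between cell types was 0.46 ± 0.205 with an FDR of 0.0601, 0.0237 with the line as a block and 0.0152 without replicate 18. Over the fits without 1 library this FDR ran up to 0.177.

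Cdkn2b (ENSMUSG00000073802, chromosome 4, 89306299 to 89311039), next to Cdkn2a, encodes p15, the INK4 inhibitor known to respond to TGF-beta. It had 25.5, 27.2 and 27.3 CPM in CD26- controls and 24.3, 19.0 and 18.6 CPM in CD26+ controls, which did not overlap but did not pass the test (log2 difference -0.37 ± 0.217, FDR 0.163). In CM it ranged from 16.5 to 28.4 CPM in CD26- NFs and from 15.6 to 30.9 CPM in CD26+ NFs. The changes with CM were -0.20 ± 0.186 (FDR 0.509) and 0.17 ± 0.190 (FDR 0.539; 0.26 and FDR 0.277 without replicate 18) on the log2 scale.

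Ccnd1 (ENSMUSG00000070348, chromosome 7, 144929931 to 144939925) encodes cyclin D1, the D cyclin most tied to growth factor signals. It had 96.8, 66.2 and 85.6 CPM in CD26+ controls and 113 to 295 CPM (median 209) in CD26+ CM, all 6 above the controls. CM raised it 2.50-fold (log2 change 1.32 ± 0.257, FDR 0.00104; 1.44 without replicate 18, the lowest of the 6). CD26- controls had 314, 359 and 310.0 CPM and CD26- CM libraries 350.3 to 568 CPM (median 478), with an overlap between groups and a log2 change of 0.53 ± 0.243 (FDR 0.149). The difference between the changes was 0.79 ± 0.341 (FDR 0.152; 0.00769 with the line as a block and 0.0376 without replicate 18). Over the fits without 1 library the FDR of this difference ran up to 0.353. Ccnd1 showed the largest difference of any member between the cell types, 3.95-fold lower in CD26+ NFs in control medium (log2 difference -1.98 ± 0.288, FDR 1.94e-05) and 2.28-fold lower in CM (log2 difference -1.19, FDR 5.43e-05; -1.07 without replicate 18). Of its exon bases 1100 (23.4%) are shared with LTO1 on the opposite strand, which had at most 294 counts. Whether the counting used strand was not given in the sources used here, so reads from both genes cannot be told apart.

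Ccnd2 (ENSMUSG00000000184, chromosome 6, 127125162 to 127152193) encodes cyclin D2 and rose with CM in both cell types. CD26- NFs had 504, 546 and 531 CPM in control medium and 639.6 to 863 CPM (median 669) in CM, and the 6 CM libraries lay above the 3 controls. CD26+ NFs had 615, 673 and 697 CPM in control medium and 1143 to 1275 CPM (median 1210.5) in CM, again without overlap and with the narrowest spread between lines of the members that rose there. The rise was 1.37-fold in CD26- NFs (log2 0.46 ± 0.0923, FDR 0.00351) and 1.83-fold in CD26+ NFs (log2 0.87 ± 0.0940, FDR 4.73e-06; 0.88 without replicate 18). The difference of 0.41 ± 0.128 had an FDR of 0.0570, of 0.0177 with the line blocked, of 0.0345 without replicate 18 and of 0.0215 with DESeq2. Among the fits without 1 library that FDR reached 0.145. Ccnd2 was higher in CD26+ NFs by 1.26-fold in control medium (FDR 0.0145; 0.0525 without CD26+ control replicate 12) and by 1.67-fold in CM (log2 difference 0.74, FDR 1.98e-07; 0.75 without replicate 18).

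Ccnd3 (ENSMUSG00000034165, chromosome 17, 47505051 to 47599691) encodes cyclin D3. It had 51.9, 55.9 and 44.4 CPM in CD26- controls, 57.6 to 63.4 CPM in CD26- CM, 63.4, 68.5 and 66.4 CPM in CD26+ controls and 52.8 to 69.8 CPM in CD26+ CM. It rose 1.19-fold with CM in CD26- NFs (log2 0.25 ± 0.0786, FDR 0.0421), a call lost in 7 of 18 fits without a library, most of all without control replicate 3 (FDR 0.247). In CD26+ NFs the log2 change was -0.12 ± 0.0767 (FDR 0.276; -0.16 and FDR 0.0769 without replicate 18). The difference of -0.36 ± 0.110 had an FDR of 0.0513, and of up to 0.132 in the fits without 1 library. It was called with the line as a block (FDR 0.0217), with DESeq2 (0.0234), with upper-quartile scaling (0.0371), among genes averaging 5 CPM or more (0.0359) and without replicate 18 (-0.41, FDR 0.00795). Ccnd3 was 1.31-fold higher in CD26+ NFs in control medium (FDR 0.00165) and level with CD26- NFs within the error in CM (log2 difference 0.02 ± 0.0631; -0.02 without replicate 18). It shares 361 exon bases with Bysl on the opposite strand, and the limit given for Ccnd1 holds here too.

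Levels of different genes can be set side by side only per length, and on that scale (CPM per kb of exon) the D cyclin pool differed in make-up between the cell types. Ccnd1 was 52.9% ± 1.23 (SD, n = 3) of the D cyclin sum in CD26- controls and 18.4% ± 3.53 (n = 3) in CD26+ controls. Ccnd2 was 42.7% ± 1.51 and 73.7% ± 3.26 of the sum in the same groups, and Ccnd3 was 4.40% ± 0.373 and 7.90% ± 0.408. In CM the shares of Ccnd1 were 54.2% ± 7.89 (n = 6) and 24.1% ± 6.39 (n = 6), and those of Ccnd2 were 42.1% ± 7.60 and 72.0% ± 5.79. Replicate 18 had the lowest Ccnd1 share of the CD26+ CM libraries (15.6%), and the other 5 had 18.3 to 31.8%. The shares of Ccnd1 did not overlap between the cell types in either medium (51.7 to 54.2% against 15.0 to 22.1% in control medium, 42.9 to 61.8% against 15.6 to 31.8% in CM). The sum itself was 131 ± 8.03 CPM per kb in CD26- controls, 184 ± 14.8 in CD26- CM, 95.5 ± 3.80 in CD26+ controls and 179.6 ± 16.6 in CD26+ CM, where replicate 18 had the lowest (153). D cyclin transcripts together were thus lowest in CD26+ NFs in control medium, and the 2 cell types overlapped in CM.

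**Figure D3:**
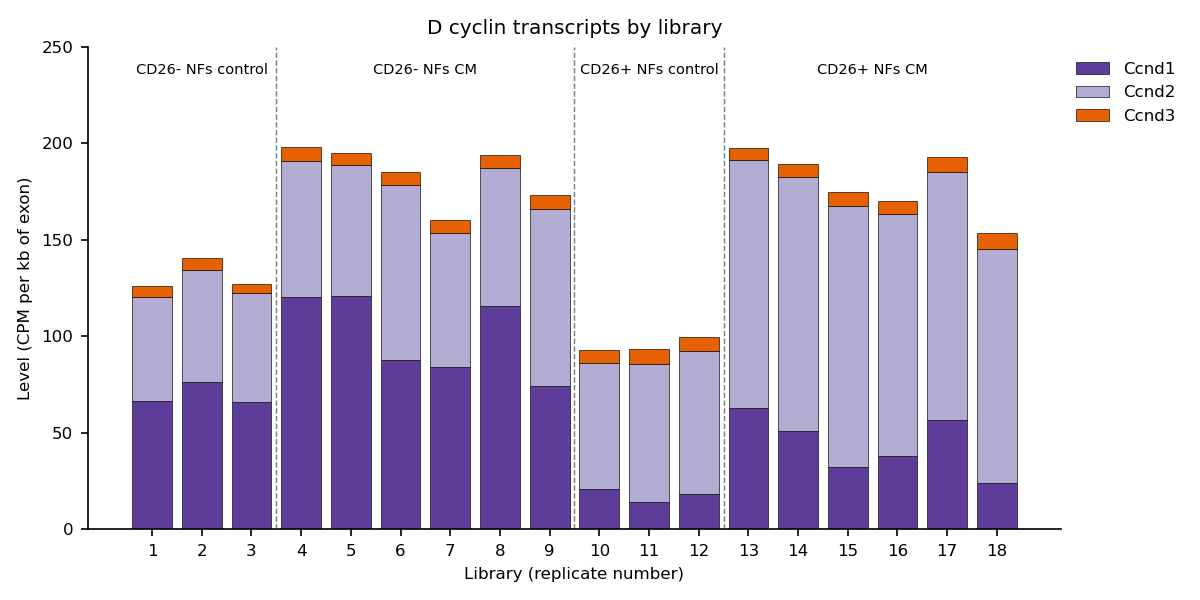
Stacked level of Ccnd1, Ccnd2 and Ccnd3 in CPM per kb of exon (vertical axis, from 0) in each of the 18 libraries (horizontal axis, replicate number), with dashed lines between the 4 groups. Ccnd1 makes up 42.9 to 61.8% of the stack in CD26- NFs and 15.0 to 31.8% in CD26+ NFs.

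On the same scale Cdkn1a was the most abundant of the 5 CDK inhibitors in every group, with 95.5 ± 5.49 CPM per kb in CD26- controls, 102 ± 4.73 in CD26- CM, 40.8 ± 3.29 in CD26+ controls and 75.4 ± 15.3 in CD26+ CM. It was 67.4% ± 0.910 of their sum in CD26- controls and 44.8% ± 2.43 in CD26+ controls, and 72.0% ± 2.55 and 63.1% ± 2.88 in CM. Cdkn1b was 8.71% ± 0.932 of the sum in CD26- controls and 19.7% ± 1.72 in CD26+ controls, and 10.1% ± 3.41 in CD26+ CM. Cdkn2a, which is low in CPM but short, was between 3.60 and 11.1% of the sum in every library. Cdkn2b was 13.6% ± 1.09 in CD26- controls and 13.9% ± 1.54 in CD26+ CM, and Cdkn2c was 9.50% ± 1.12 in CD26+ controls and 4.71% ± 1.84 in CD26+ CM. In replicate 18 the shares of Cdkn1a, Cdkn1b and Cdkn2c were 58.2%, 15.7% and 7.78%, and in the other 5 CD26+ CM libraries they were 62.3 to 67.1%, 5.80 to 12.0% and 2.40 to 5.61%.

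Trp53 (ENSMUSG00000059552, chromosome 11, 69580359 to 69591873), whose protein is governed mostly by its stability, varied least of the members over the 18 libraries. It had 151, 144 and 137 CPM in CD26- controls, 136 to 157 CPM in CD26- CM, 131, 123 and 123 CPM in CD26+ controls and 125 to 147 CPM in CD26+ CM. The changes with CM were 0.03 ± 0.0546 (FDR 0.776) in CD26- NFs and 0.10 ± 0.0548 (FDR 0.210; 0.06 without replicate 18) in CD26+ NFs on the log2 scale. It was 1.15-fold lower in CD26+ NFs in control medium (FDR 0.0152), a call lost without any of replicates 1, 11 and 12 (FDR up to 0.0890), and 1.09-fold lower in CM (log2 difference -0.13, FDR 0.0192; -0.16 without replicate 18), where the groups overlapped and the call was lost with no filter on low counts (FDR 0.119).

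Mdm2 (ENSMUSG00000020184, chromosome 10, 117688875 to 117710758) encodes the ubiquitin ligase of p53. It had 258, 269.8 and 259 CPM in CD26- controls and 219 to 247 CPM (median 233) in CD26- CM. The 6 CM libraries were below the 3 controls, but the log2 change of -0.17 ± 0.0783 did not pass (FDR 0.161). The epithelial markers were lower in 5 of these 6 libraries too, as given above, and their part was not tested. CD26+ NFs had 117, 96.3 and 113 CPM in control medium and 116 to 159 CPM (median 132) in CM. There Mdm2 rose 1.24-fold (log2 0.31 ± 0.0810, FDR 0.00901; 0.34 without replicate 18), with an overlap between the groups and without a call when control replicate 11 was left out (FDR 0.108). The difference between the changes was 0.47 ± 0.112 (FDR 0.0183; 0.50 and FDR 0.00379 without replicate 18), and it was not called without replicate 2, 3 or 11 (FDR 0.0571, 0.0558 and 0.0923). Mdm2 was 2.41-fold lower in CD26+ NFs in control medium (FDR 1.60e-08) and 1.74-fold lower in CM (log2 difference -0.80, FDR 2.05e-08; -0.76 without replicate 18), without overlap in either.

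The 6 tumour lines were compared with each other over the 12 CM libraries, with cell type as a further term, and 6.56% of 13344 genes differed among lines. Of the members, Ccnd1 and Cdkn2b did (2 of 10). Ccnd1 was high under CM of lines 13-MCB-17, 10-SJK-221 and 13-MCB-90, with 568, 568 and 544 CPM in CD26- NFs and 295, 240.5 and 267 CPM in CD26+ NFs. Under CM of lines 18-MCB-12, 13-MCB-44 and 13-MCB-138 it had 412, 396 and 350.3 CPM in CD26- NFs and 151, 178 and 113 CPM in CD26+ NFs. These sets of lines were formed from the same values, so that they do not overlap in either cell type is a description and not a test. The line term gave F = 14.9 (FDR 0.0162, and at most 0.0372 in the alternatives). For Cdkn2b (F = 9.99, FDR 0.0352) lines 13-MCB-17 and 13-MCB-44 gave 27.6 and 28.4 CPM in CD26- NFs and 30.9 and 27.4 CPM in CD26+ NFs. Line 18-MCB-12 gave 16.5 and 17.4 CPM. The Cdkn2b call was lost when line 13-MCB-17, 18-MCB-12, 13-MCB-44 or 13-MCB-90 was left out (FDR 0.0761, 0.129, 0.0957 and 0.0584). Cdkn1a ranged 1.13-fold between lines in CD26- NFs and 1.82-fold in CD26+ NFs, with no effect of line common to both (FDR 0.652). The remaining 7 members also had an FDR above 0.05, from 0.162 for Cdkn1b to 0.759 for Cdkn2c. With no filter on low counts Cdkn1b (FDR 0.0217) and Cdkn2a (FDR 0.00779) were called as well, 4 of 10 members. In that fit 2475 of all genes were called, against 876 with the filter.

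**Figure D4:**
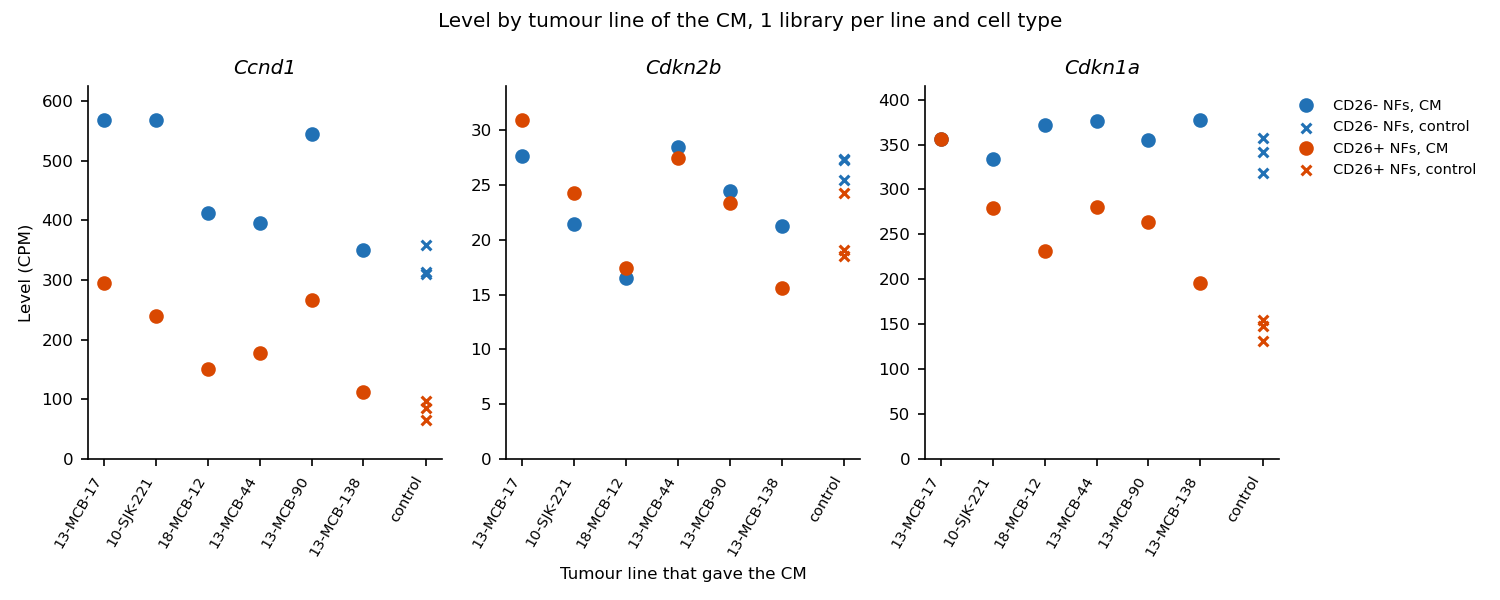
Level in CPM (vertical axes, from 0) of Ccnd1, Cdkn2b and Cdkn1a by the tumour line that gave the CM (horizontal axes), with CD26- NFs in blue, CD26+ NFs in orange, 1 circle per line and cell type and control libraries as crosses at the right (for Cdkn1a the circles of line 13-MCB-17 coincide). Ccnd1 follows the same lines in both cell types. Cdkn1a has a wider range over the CM libraries of CD26+ NFs (196 to 356 CPM) than of CD26- NFs (334 to 377 CPM). Its line term was not called (FDR 0.652, F test of edgeR), and line and culture cannot be told apart within a cell type.

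Genes of cell division were lower in CD26+ NFs in CM than in their controls, and none was called in CD26- NFs. Of 40 such genes, 34 fell and 0 rose with CM in CD26+ NFs (median log2 change -0.80, against 0.00 over all genes), where 13.4% of all genes fell, and 40 fell without replicate 18. In CD26- NFs 0 of 40 were called by edgeR (median 0.07; 0 at an unadjusted p under 0.05 and 0 with DESeq2), and 1 rose without replicate 18. Cdc20, an activator of the anaphase-promoting complex, fell from 76.2 ± 2.30 to 35.7 ± 12.8 CPM in CD26+ NFs (log2 change -1.10 ± 0.189, FDR 0.000374), and the mitotic kinase gene Plk1 fell from 52.3 ± 3.15 to 25.2 ± 10.6 CPM (-1.06 ± 0.203, FDR 0.000931). Between the cell types in CM 35 of 40 were lower in CD26+ NFs (median -0.97; 39 without replicate 18), against 29.3% of all genes, led by Aurka (-1.31 ± 0.150, FDR 8.83e-07) and Ube2c (-1.27 ± 0.147, FDR 9.93e-07). In control medium 1 of 40 was lower, Aurka (-0.56 ± 0.204, FDR 0.0305), against 25.4% of all genes. Calls there in either direction were 0 when any 1 of the 6 control libraries was left out. They were 5, 2 and 8 without replicates 13, 14 and 18. Of the 8 without replicate 18, 5 were higher and 3 lower in CD26+ NFs. The CM effect differed for 6 of 40, all of them lower in CD26+ NFs, against 3.01% of all genes. The count of all genes called was 1075, 2345 without replicate 18 and 2516 with the line blocked. That of the 40 became 39 without replicate 18, 34 with the line blocked and 21 with DESeq2. It was 0 without replicate 2, 3, 11 or 12, 1 without replicate 1 or 10, 2 without replicate 4, 5, 6, 8, 14, 15, 16 or 17, and 10 without replicate 13.

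A cell division score, the mean log2 CPM of the 40 genes, was 5.79 ± 0.0496 (SD, n = 3) in CD26- controls, 5.87 ± 0.118 (n = 6) in CD26- CM, 5.78 ± 0.0280 (n = 3) in CD26+ controls and 4.93 ± 0.536 (n = 6) in CD26+ CM. In CD26+ CM it was 4.19, 4.69, 4.98, 5.00, 4.90 and 5.83 for lines 13-MCB-17, 10-SJK-221, 18-MCB-12, 13-MCB-44, 13-MCB-90 and 13-MCB-138. The last, replicate 18, was thus above the highest CD26+ control (5.81) while the other 5 lay below the lowest (5.75). In the same library Cdkn1a was lowest (196 CPM), Ccnd1 lowest (113 CPM) and Cdkn1b and Cdkn2c highest (67.5 and 19.7 CPM) of the 6. In the library of line 13-MCB-17, with the lowest score, Cdkn1a, Ccnd1 and Cdkn2a were highest and Cdkn1b and Cdkn2c lowest.

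Over the 6 CD26+ CM libraries the score correlated with Ccnd1 (Pearson r = -0.889, exact permutation p = 0.00556; Spearman rho = -0.886, p = 0.0333), with Cdkn2a (r = -0.839, p = 0.00417; rho = -0.943, p = 0.0167), with Cdkn1a (r = -0.942, p = 0.0194; rho = -0.657, p = 0.175) and with Cdkn1b (r = 0.949, p = 0.0125; rho = 0.886, p = 0.0333). None of the 20 relations computed (10 members in each cell type in CM, two-sided exact tests) passed after adjustment: the lowest adjusted p was 0.0556 for r and 0.133 for rho. Without the 2 libraries farthest from the median score, r was -0.649 for Ccnd1, -0.881 for Cdkn2a, -0.442 for Cdkn1a, 0.632 for Cdkn1b and -0.246 for Cdkn2c (0.900 with all 6), and it went from -0.861 to -0.0369 for Mdm2, from 0.865 to 0.124 for Ccnd3 and from -0.830 to -0.213 for Cdkn2b. It was thus weaker for each of these but Cdkn2a. The libraries left were fewer and had a narrower range of the score, so a weaker r cannot tell which relations hold. Over the 6 CD26- CM libraries, where the score ran only from 5.70 to 6.01, r was -0.892 for Cdkn1a (exact permutation p = 0.0153; rho = -0.943, p = 0.0167; r without 2 libraries -0.918) and 0.850 for Ccnd1 (p = 0.0403; rho = 0.886, p = 0.0333; 0.897). The adjusted p was 0.0764 and 0.0861, and for Cdkn1b and Ccnd3 r was -0.751 (adjusted p 0.172) and -0.635 (adjusted p 0.278) by the same exact permutation test. Without the 2 farthest libraries r was -0.374 for Cdkn1b and -0.905 for Ccnd3. The signs for Ccnd1, Cdkn1b and Ccnd3 were opposite to those in CD26+ NFs, a contrast that was not tested.

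**Figure D5:**
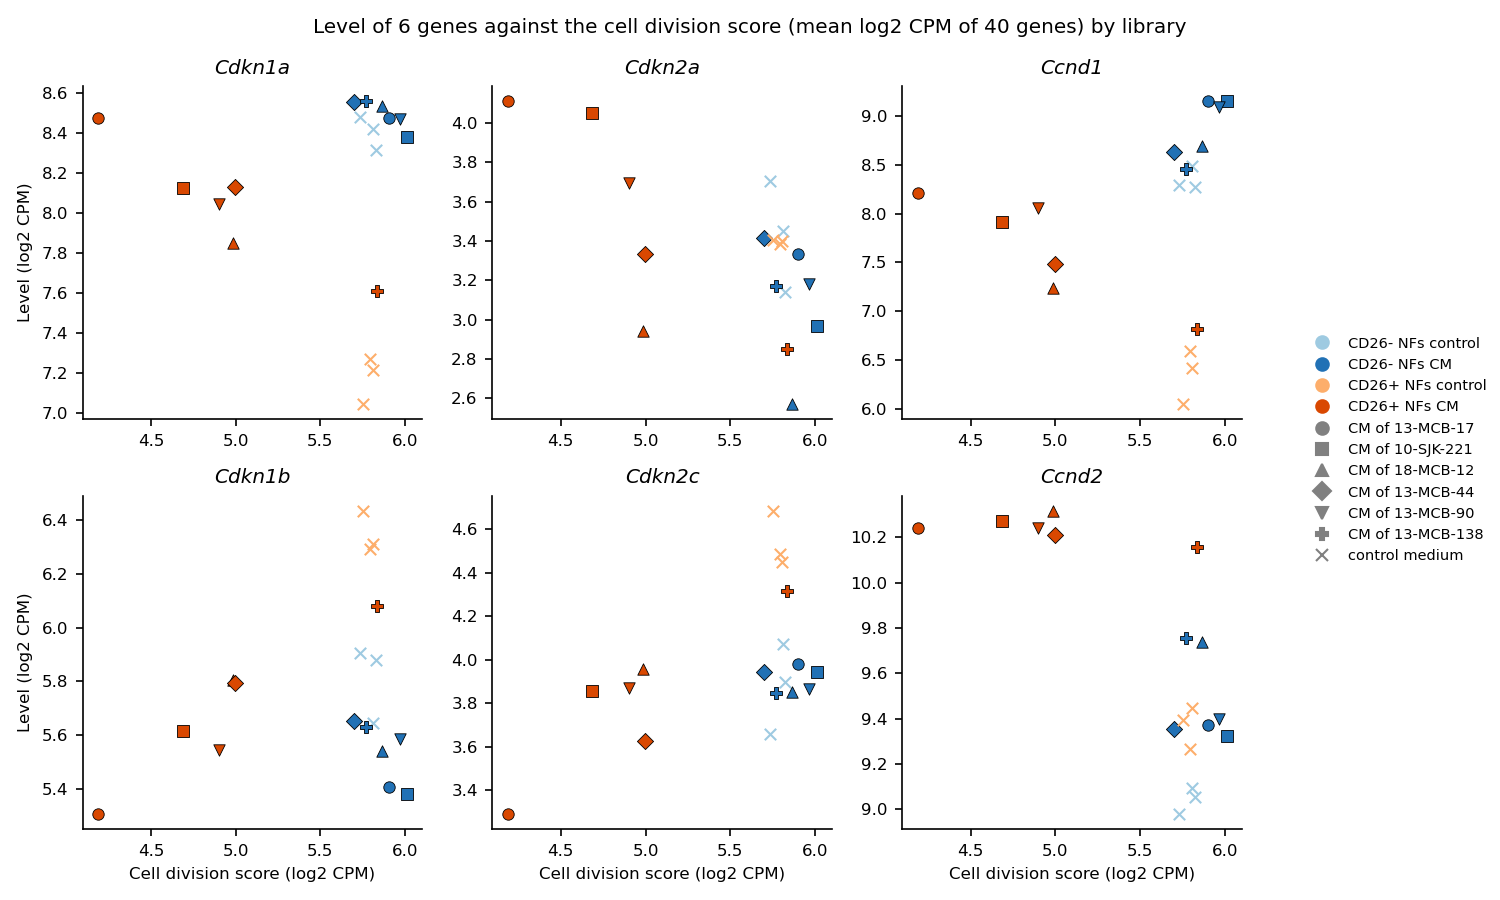
Level of 6 genes in log2 CPM (vertical axes) against the cell division score in log2 CPM (horizontal axes) for the 18 libraries, coloured by group and shaped by the tumour line of the CM. The 5 CD26+ CM libraries with a score of 4.19 to 5.00 have more Cdkn1a and Ccnd1 and less Cdkn1b than their controls, and so has replicate 18, whose score of 5.83 is not lowered.

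Of 24 other genes of the G1 machinery, 2 rose and 8 fell with CM in CD26+ NFs (median log2 change -0.19), and 2 rose and 1 fell in CD26- NFs (median 0.05). All genes were called at 28.6% and 15.2% in these comparisons, so the 3 of 24 in CD26- NFs are no more than the background. Cdk6, a partner kinase of D cyclins, rose in CD26+ NFs from 12.6 ± 1.23 to 31.3 ± 9.15 CPM (log2 1.32 ± 0.249, FDR 0.000830). Cks1b, a cofactor in the destruction of p27, fell there from 62.3 ± 0.829 to 41.5 ± 7.59 CPM (-0.59 ± 0.105, FDR 0.000520), and its CM effect differed between the cell types (-0.60 ± 0.151, FDR 0.0243), the only call among the 24, against 7.53% of all genes (9 with the line blocked, 10 when replicate 18 was left out, 3 without replicate 9, 2 without replicate 13, and 0 without replicate 3, 11 or 12). The E2F gene E2f7 fell in CD26+ NFs (-0.92 ± 0.239, FDR 0.00806), and E2f4 rose in CD26+ NFs (0.29 ± 0.0907, FDR 0.0223) and in CD26- NFs (0.28 ± 0.0908, FDR 0.0472). In CD26- NFs Myc rose from 63.4 ± 4.79 to 89.3 ± 7.42 CPM (0.50 ± 0.111, FDR 0.00692) and Rb1, the retinoblastoma gene, fell from 29.8 ± 1.36 to 24.0 ± 2.36 CPM (-0.32 ± 0.0845, FDR 0.0187). In control medium CD26+ NFs had more of 5 of these genes and less of 3, a smaller share than the 50.3% of all genes called, among them Fbxo31, whose product marks cyclin D1 for degradation (0.70 ± 0.113, FDR 5.68e-05), Myc (0.55 ± 0.126, FDR 0.00150), E2f2 (-1.34 ± 0.219, FDR 6.63e-05) and Rb1 (-0.52 ± 0.0993, FDR 0.000319). In CM 3 were higher and 7 lower, again a smaller share than the 58.6% of all genes, among them Fbxo31 (0.44 ± 0.0803), Fbxo4 (0.18 ± 0.0712), Cks1b (-0.62 ± 0.0879) and E2f2 (-1.13 ± 0.162). The 10 calls in CD26+ NFs became 4 without replicate 12 or 14, 5 without replicate 10, 13 or 17, 6 without replicate 11 and 15 without replicate 18. The count of 10 between the cell types in CM was 6 without replicate 6, 13 or 15 and 14 without replicate 18, and the 3 calls in CD26- NFs became 1 without replicate 1, 0 without replicate 3 and 5 without replicate 16.

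p53 target genes were, like Cdkn1a and Mdm2, mostly lower in CD26+ NFs than in CD26- NFs. Of 26 targets other than these, 21 had less and 2 more RNA there in control medium (median log2 difference -0.64, against 0.01 over all genes), and 21 were lower and 3 higher in CM (median -0.41; 18 and 3 without replicate 18). Of all genes 25.4% and 29.3% were lower in these comparisons. Ccng1, the cyclin G1 gene, had 779 ± 20.0 CPM in CD26- controls and 321 ± 31.9 CPM in CD26+ controls (-1.28 ± 0.0929, FDR 1.45e-08), and Btg2, an antiproliferative gene, had 79.3 ± 0.722 and 27.6 ± 4.96 CPM (-1.52 ± 0.131, FDR 8.52e-08). The stress genes Sesn1 (1.21 ± 0.175, FDR 1.92e-05) and Sesn2 (0.50 ± 0.105, FDR 0.000694) were higher. In CM Ccng1 (-0.98 ± 0.0653) and Polk, a translesion polymerase gene (-0.68 ± 0.0597), were lower, and Fas (1.20 ± 0.142) and Sesn1 (0.81 ± 0.131) higher. Epithelial markers differed between the same libraries in the same direction as most of these genes, as given above, and their part was not tested.

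With CM, 6 of the 26 targets rose and 4 fell in CD26+ NFs (median 0.09), while 0 rose and 6 fell in CD26- NFs (median -0.16), and the CM effect was higher in CD26+ NFs for 6 and lower for 0. Of all genes 15.2% rose and 13.4% fell in CD26+ NFs, 7.88% rose and 7.28% fell in CD26- NFs, and 4.53% had a higher effect in CD26+ NFs. Without replicate 18, 7 targets rose and 4 fell in CD26+ NFs. In CD26- NFs the epithelial markers were lower in 5 of 6 CM libraries than in the controls, as given above, and their part was not tested. Fas, the death receptor gene, rose in CD26+ NFs from 5.48 ± 0.392 to 23.2 ± 4.82 CPM (log2 2.08 ± 0.195, FDR 1.20e-06), and its CM effect differed by 1.62 ± 0.269 (FDR 0.00402). Btg2 rose from 27.6 ± 4.96 to 43.9 ± 6.25 CPM (0.67 ± 0.116, FDR 0.000390) and differed by 0.92 ± 0.157 (FDR 0.00402). Sesn1 fell (-0.84 ± 0.144, FDR 0.000361), as did Apaf1 (-0.18 ± 0.0440, FDR 0.00522). In CD26- NFs Trp53inp1 fell from 199 ± 6.26 to 114 ± 24.1 CPM (-0.81 ± 0.163, FDR 0.00351) and the repair gene Xpc fell by 0.37 ± 0.0865 (FDR 0.00910). The 6 calls in CD26- NFs became 1 without replicate 1 or 3 and 3 without replicate 2, 4 or 5. The 10 calls in CD26+ NFs became 5 without replicate 11, and the 6 differences were 3 without replicate 3 and 2 without replicate 11.

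Of 23 tested senescence-associated genes, 11 rose and 2 fell with CM in CD26+ NFs (median log2 change 0.46), and 8 rose and 0 fell in CD26- NFs (median 0.35), where the cell division genes had no call. Without replicate 18 the counts in CD26+ NFs were 12 and 2, and of all genes 15.2% rose in CD26+ NFs and 7.88% in CD26- NFs. Ccl2, a monocyte chemokine gene, rose from 85.5 ± 4.22 to 821 ± 190.5 CPM in CD26+ NFs (3.26 ± 0.228, FDR 8.70e-08) and from 137 ± 17.8 to 369.7 ± 82.1 CPM in CD26- NFs (1.43 ± 0.205, FDR 0.000362). The neutrophil chemokine gene Cxcl1 rose by 3.68 ± 0.322 (FDR 6.15e-07) and 2.25 ± 0.288 (FDR 0.000194). Lmnb1, the lamin B1 gene whose loss is a mark of senescence, fell in CD26+ NFs from 112 ± 4.49 to 74.4 ± 15.4 CPM (-0.59 ± 0.113, FDR 0.000886), and its change in CD26- NFs was -0.07 ± 0.114 (FDR 0.734), with a difference between these changes of -0.52 ± 0.162 (FDR 0.0563). Igfbp4, a binding protein gene of insulin-like growth factors, fell in CD26+ NFs from 1382 ± 142 to 222 ± 215 CPM (-2.64 ± 0.504, FDR 0.000907). Glb1, which encodes the lysosomal beta-galactosidase, had 80.8 ± 3.53 CPM in CD26+ controls and 98.4 ± 6.43 CPM in CD26+ CM, against 53.3 ± 1.89 and 51.2 ± 3.37 CPM in CD26- NFs, and was higher in CD26+ NFs in control medium (0.60 ± 0.0715, FDR 2.48e-06) and in CM (0.94 ± 0.0506, FDR 2.44e-10).

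In control medium CD26+ NFs had more RNA than CD26- NFs of 4 senescence-associated genes and less of 10 (median -0.68), and in CM they had more of 8 and less of 7 (median -0.02; 10 and 7 without replicate 18). Of all genes 25.0% were higher and 25.4% lower in control medium, and 29.3% each in CM. Hgf (1.46 ± 0.216, FDR 2.37e-05) was higher in control medium and Igfbp3 (2.99 ± 0.231, FDR 1.12e-08) in CM. Plaur, the urokinase receptor gene, and Areg, the amphiregulin gene, were lower in control medium (-1.05 ± 0.116 and -2.26 ± 0.324) and in CM (-0.83 ± 0.0813 and -2.16 ± 0.231). The CM effect was higher in CD26+ NFs for 6 of 23 genes (4.53% of all genes) and lower for 0 (3.01%), among them Ccl2 (1.83 ± 0.275, FDR 0.00267) and Vegfa (0.96 ± 0.187, FDR 0.00656). The 8 calls in CD26- NFs became 5 without replicate 1, 2 or 3. The 6 differences were 3 without replicate 1, 3, 10, 11 or 12, and 10 without replicate 18 (14 with the line as a block).

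The genes whose log2 CPM followed each member most closely over the 18 libraries were searched among the 10612 genes whose mean reached 5 CPM, as a description in which the 4 groups set most of the likeness. Cdkn1a was followed by Phlda1 (r = 0.978), Tmbim1 and Cflar, Ccnd1 by Bdkrb2 (0.987), Bcl2l1 and Lrrfip1, and Mdm2 by Acot7 (0.993), Abca3 and Tgif1. Cdkn1b was followed by H2az2 (0.950), Elovl5 and Pappa, and Ccnd2 by Atxn7l1 (0.980), Prelp and Sash1. Cdkn2c was followed by Cdc7 (0.916), Hmgn2 and Cbx1, and Ccnd3 by Cdt1 (0.885), Mrpl17 and Lmnb2, lists that hold the replication genes Cdc7 and Cdt1. Trp53 was followed by Brcc3 (0.911), Gcdh and Rnf141. For Cdkn2a (Irf9, 0.809, Samd5 and Dync1li1) and Cdkn2b (Trim21, 0.807, Prl2c2 and Trim13) the highest r was lower.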

How the data were processed

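Polyadenylated RNA was sequenced from 18 NF cultures in 4 groups, taken from the titles. The full genotype of the tumour lines is not reported here. The authors deposited raw read counts per Ensembl gene. HISAT2 2.1.0, HTSeq and GRCm38 are named in the submitters' processing notes, and the annotation release and the strand setting of the counting are not given in the sources used here. The row without a gene name held 0 counts and was dropped, and all libraries were used. Libraries of a group differed by more than counting error (lowest chi-square per degree of freedom 3.05), and nothing says that they came from separate mice, so p-values measure the spread between these cultures.

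Counts were scaled by TMM, filtered with filterByExpr by group (99.9% of counts kept in the library with the lowest share) and tested in edgeR 4.0.16 (R 4.3.3) by its quasi-likelihood approach, with a term per group over all 18 libraries and Benjamini-Hochberg adjustment over 14273 genes. Calls needed an FDR below 0.05, without the log2 limit of 2 of the study, which used DESeq2. CPM values are relative to TMM-scaled library size, and log2 CPM has a prior count of 2. Lines were tested over the 12 CM libraries with cell type as a term (13344 genes, 5 residual degrees of freedom). Exon lengths came from GENCODE vM21, whose start and end equal those of the table for 99.0% of genes and all 10 members. Steps were tested on simulated counts.

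Members and gene lists were chosen with earlier results of these data known. Text names all members, and in each list and comparison the 2 genes up and 2 down with the smallest p past the FDR, plus 3 genes most alike each member. Lmnb1 in CD26- NFs and Glb1 within each cell type were named in further comparisons after their values were seen. Libraries given CM of the same line deviated together (r from 0.247 to 0.406 in 6 pairs, against -0.315 to 0.242 in 30 other pairs), so the line served as a replicate block in an alternative. Further fits used DESeq2 1.42.0, scaling by RLE or the upper quartile, other filters, a fit of the CM libraries only, the log2 limit and leaving out each library.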

Additional observations from a re-analysis of the deposited data

Results flagged for a closer look

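The effect of CM differed between CD26+ and CD26- NFs, by the interaction test of edgeR over all genes, for 3 of the 10 genes. For Cdkn1a the difference in log2 change was 0.79 ± 0.172 (FDR 0.0118), with a rise in CD26+ NFs. For Mdm2 it was 0.47 ± 0.112 (FDR 0.0183), where 6 of 6 CD26- CM libraries lay below their controls and CD26+ NFs rose. For Cdkn2c it was -0.72 ± 0.208 (FDR 0.0439), with 6 of 6 CD26+ CM libraries below their controls and no such shift in CD26- NFs. With DESeq2 the FDR was 0.000747, 0.00282 and 0.0145 for Cdkn1a, Mdm2 and Cdkn2c, and with the line as a replicate block it was 0.00519, 0.00501 and 0.0217. Over the fits without 1 library it ran from 0.000564 to 0.0586 for Cdkn1a, from 0.00379 to 0.0923 for Mdm2 and from 0.00241 to 0.116 for Cdkn2c, and with no filter Cdkn2c had 0.0514.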

How the results depend on the processing

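With the log2 limit of 2 beside the FDR, 0 members were called in any comparison, and 129, 287, 852, 594 and 56 of all genes were called for CM in CD26- NFs, CM in CD26+ NFs, the cell types in control medium, the cell types in CM and the difference in CM effect. In that order this limit called 0, 1, 2, 1 and 0 p53 targets, 3, 7, 6, 5 and 0 senescence-associated genes, 0 genes of the G1 machinery and 0 cell division genes. With DESeq2 the G1 genes called were 5 for CM in CD26- NFs, the cell division genes called were 2 between the cell types in control medium, and the difference in CM effect was called for 5 members, 4 G1 genes and 21 cell division genes. With no filter, CM in CD26- NFs called 1 member, the cell types in CM differed for 6 G1 genes, and the lines differed for 4 members and 2475 genes. When only genes averaging 5 CPM or more were tested, the difference in CM effect was called for 5 members, 2 G1 genes and 11 cell division genes. With the line as a replicate block it was called for 7 members, 2516 genes, 9 G1 genes, 34 cell division genes and 14 senescence-associated genes.

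Leaving out a library gave 1 to 2 members, 825 to 2748 genes, 0 to 5 G1 genes, 0 to 1 cell division genes, 1 to 8 p53 targets and 5 to 10 senescence-associated genes for CM in CD26- NFs. It gave 4 to 15 G1 genes and 5 to 11 p53 targets for CM in CD26+ NFs, 0 to 8 cell division genes between the cell types in control medium and 6 to 14 G1 genes between them in CM. For the difference in CM effect it gave 0 to 7 members, 339 to 2345 genes, 0 to 10 G1 genes, 0 to 39 cell division genes, 2 to 6 p53 targets and 3 to 10 senescence-associated genes. Leaving out a line gave 1 to 2 members and 430 to 1420 genes that differed among lines.

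Of single members, log2 changes of the other sign came only for values near 0 without a call. Between the cell types in CM, Cdkn2b had 7.6e-06 with RLE scaling and 0.015 with no filter, and Ccnd3 had -0.0028 with upper-quartile scaling. Over the fits without 1 library, the log2 differences there ran from -0.11 to 0.085 for Cdkn2b, from -0.17 to 0.028 for Cdkn2c and from -0.023 to 0.054 for Ccnd3. For CM in CD26- NFs they ran from -0.074 to 0.12 for Cdkn2c and from -0.0059 to 0.068 for Trp53, and for Cdkn2a between the cell types in control medium from -0.18 to 0.11. With no filter Trp53 lost its calls between the cell types (FDR 0.0573 in control medium, 0.119 in CM), Ccnd3 its call for CM in CD26- NFs (0.0998) and Cdkn2c its call for the difference (0.0514). The causes were not tested. With 3 libraries in each control group, a change of a member with a spread such as that of Cdkn2a was not detectable unless larger than the SE given beside it by several times.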
